A study of Homo sapiens with 2 samples.

Results

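BMP and activin signalling was examined through 10 genes in HARA, an established human cell line from squamous lung cancer, and in HARA-B4, its bone-seeking subline, which is highly metastatic to bone. The genes were the ligands BMP2, BMP4 and BMP7, the activin subunits INHBA and INHBB, the receptor BMPR2, the antagonist FST (follistatin) and the ID genes ID1, ID2 and ID3. All probe sets whose only annotated gene symbol is 1 of these were taken, which gave 24 probe sets among 41097 with a single symbol, and 10 genes of 19775. Total RNA of each line, grown untreated in the same serum-containing RPMI medium, was hybridised to 1 Affymetrix array. With n = 1 for each line there is no p-value and no replicate error, and the labels do not say how the subline was derived or whether it is a single clone.

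BMPs and activins are secreted dimers of the TGF-beta superfamily. They bring together type I and type II serine/threonine kinase receptors at the cell surface, and these phosphorylate SMAD proteins. BMP receptors act mainly through SMAD1, SMAD5 and SMAD9, and activin receptors through SMAD2 and SMAD3. Secreted antagonists such as follistatin bind the ligands before they reach a receptor. ID1, ID2 and ID3 are textbook targets of the BMP branch. Their products are helix-loop-helix proteins without a DNA-binding region, which pair with E proteins and keep them off E-box DNA. BMPs were first known for inducing bone, and activins and follistatin also act on bone cells.

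The promoters of FST, which differed by more than 2-fold, and of the 3 ID genes, which were bright on both arrays and differed among themselves, are shown for comparison. Each is the 250 bases before the RefSeq start site (GRCh38.p14), read along the gene's strand. RefSeq promoters were matched for 8 of the 10 genes, all but BMP2 and BMP7. Capitals mark matches on either strand to 4 motifs, namely TATAAA (the TATA box), CCAAT (the CCAAT box), the GC-rich motif GGCGCC of BMP-responsive SMADs, and the E-box CANNTG.
FST (chr5:53480379-53480628, plus strand): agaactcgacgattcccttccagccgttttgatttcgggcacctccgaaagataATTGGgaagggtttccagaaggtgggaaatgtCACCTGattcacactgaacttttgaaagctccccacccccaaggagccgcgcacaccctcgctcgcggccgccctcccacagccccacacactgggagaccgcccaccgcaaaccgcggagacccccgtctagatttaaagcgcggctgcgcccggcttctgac
ID1 (chr20:31605039-31605288, plus strand): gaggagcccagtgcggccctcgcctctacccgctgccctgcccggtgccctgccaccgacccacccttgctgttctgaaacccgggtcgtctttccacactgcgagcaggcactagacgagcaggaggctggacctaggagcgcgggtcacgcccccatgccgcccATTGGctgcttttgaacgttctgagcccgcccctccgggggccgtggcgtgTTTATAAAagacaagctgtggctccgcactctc
ID2 (chr2:8681806-8682055, plus strand): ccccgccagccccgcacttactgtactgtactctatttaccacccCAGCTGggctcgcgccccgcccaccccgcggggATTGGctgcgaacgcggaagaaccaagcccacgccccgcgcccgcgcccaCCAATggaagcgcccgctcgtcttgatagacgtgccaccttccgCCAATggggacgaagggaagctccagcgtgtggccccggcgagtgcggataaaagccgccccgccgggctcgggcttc
ID3 (chr1:23559502-23559751, minus strand): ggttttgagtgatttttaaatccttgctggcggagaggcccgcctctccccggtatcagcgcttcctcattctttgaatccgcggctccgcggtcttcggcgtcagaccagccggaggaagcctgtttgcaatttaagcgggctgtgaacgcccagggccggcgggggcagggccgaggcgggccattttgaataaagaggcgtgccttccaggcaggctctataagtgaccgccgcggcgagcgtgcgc

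Among 35116 RefSeq promoters of this length, TATAAA was found in 10.7%, CCAAT in 32.0%, GGCGCC in 16.4% and CANNTG in 61.8%. The FST promoter held 1 CCAAT, read as ATTGG on the gene's strand, and 1 E-box, CACCTG, which lay 164 to 159 bases before the start. ID1 held a TATA box on each strand. These overlapped and lay 33 to 26 bases before the start, and a CCAAT lay 84 to 80 bases before it. ID2 held 3 CCAAT and 1 E-box but no TATAAA. ID3 held none of the 4 motifs. GGCGCC was absent from these 4 windows. Among the matched promoters not printed here, it was found in BMP4 (at 1 of 3 start sites), BMPR2 and INHBB, and not in INHBA. The 4-base SMAD box GTCT was present in all 4 printed windows, but 77.5% of all promoters held it. It had 3 matches in FST and ID1 and 2 in ID2 and ID3. These matches describe letters only, and the arrays do not measure binding.

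The arrays gave deposited linear signals, and a probe set was called above background when its signal exceeded 27.1, or 4.76 on the log2 scale. This level is the 95th percentile of 165 probe sets for olfactory, vomeronasal and taste receptors, taken as not used in these cells. A gene is represented by whichever of its probe sets had the highest mean on the log2 scale, and differences are HARA-B4 minus HARA. Over all probe sets, the median signal was 17.3 on the HARA array and 16.2 on the other, and 10207 genes were above background on both arrays. The median of their differences was 0.02, with an SD of 0.55. For 4830 genes that had more than 1 probe set measured this way, the SD between probe sets of the same gene was 0.30. That spread, called the technical spread below, compares probe sets of a gene on the same arrays. It holds no error between arrays, RNA samples or cultures, which these data cannot estimate.

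The labelled cell type was compared with its markers. All 6 measured squamous markers (KRT5, KRT14, DSG3, SOX2, PKP1 and PERP) were above background on both arrays, at summed signals of 16833 in HARA and 21451 in HARA-B4. KRT5, a basal keratin, was at 4723 and 4504, KRT14 at 3938 and 7345, DSG3 at 2967 and 2098, SOX2 at 335 and 543, and PERP at 4679 and 6289. PKP1, a desmosomal plakophilin, was at 191 and 672 and was the squamous marker past 2-fold. Of 8 fibroblast markers, 2 were above background on at least 1 array. COL1A1 was at 185 and 139.9. THY1 was at 63.8 in HARA and 23.8, below background, in HARA-B4, thus at least 2.35-fold lower there. Its other probe sets gave bounds of 2.40-fold and 2.57-fold in the same direction. COL1A2, COL3A1, DCN, LUM, PDGFRA and PDGFRB were at background on both. All 5 measured osteoblast markers were at background, as were the leukocyte markers PTPRC, CD3E and LYZ and 4 of 5 endothelial markers. The endothelial exception was PECAM1, at 50.6 and 50.4. HBB, the beta-globin gene of red blood cells, was at 35.7 and 33.9. Of 5 lung adenocarcinoma and alveolar markers, NKX2-1 (58.6 and 41.9), SFTPB (43.7 and 56.1) and SFTPC (36.8 and 25.4) were above background on at least 1 array.

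Of the 10 genes, 7 were above background on both arrays and 3, BMP4, INHBA and INHBB, on neither. HARA-B4 had more BMP7 and BMP2 transcript and less FST transcript than HARA, each by at least 2-fold on the probe set used for the gene, while BMPR2, ID1, ID2 and ID3 differed by less. The BMP2 call is the weakest of the 3, since its other probe set gave 1.68-fold and it held under 6 of 12 alternative settings. Those 6 include settings looser than the main rule, which could not remove a call. The 3 genes past 2-fold out of 7 stand beside 6.69% of all genes above background on both arrays, or 3.13% for higher and 3.57% for lower genes. The genes were picked with earlier results of these arrays known, so this count is a description. The median difference of the 7 was 0.12, against 0.02 over all genes. Of the 24 probe sets, 16 were above background on both arrays, 1 on HARA-B4 only and 7 on neither. At the probe set level 6 of the 16 reached 2-fold, 3 in each direction, beside 6.35% of all probe sets above background on both, or 2.82% for higher and 3.53% for lower ones. The 3 lower ones were all of FST and the 3 higher ones were of BMP7 and BMP2. They are repeat readings of the same 3 genes on the same arrays and add no independent count.

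**Figure D1:**
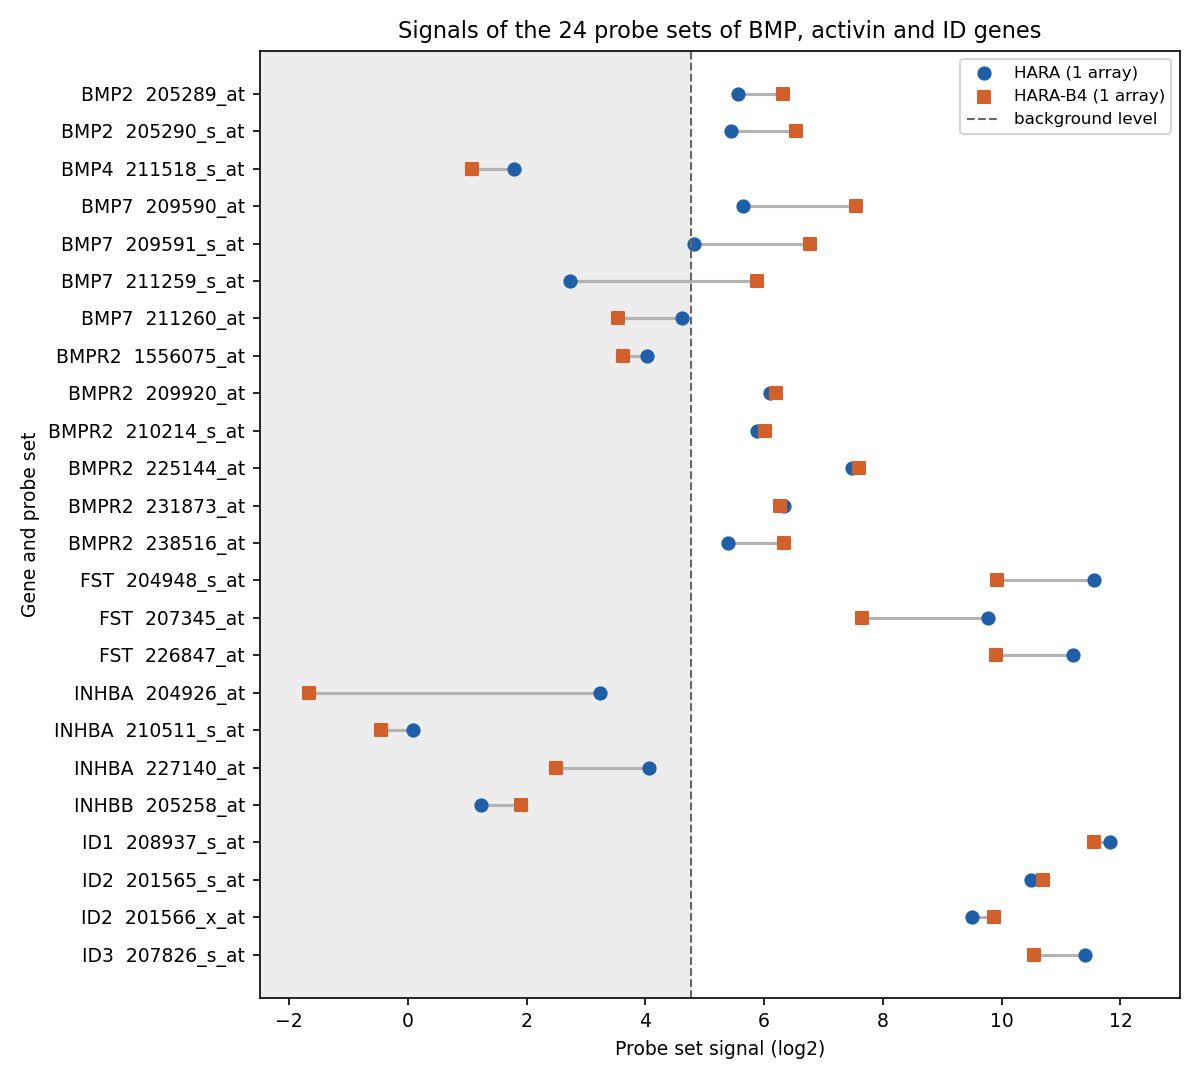
Signals of the 24 probe sets on the HARA array (circles) and the HARA-B4 array (squares), on the log2 scale, with a line joining the values of 1 probe set. The dashed line is the background level of 4.76 and the grey area lies below it. The FST probe sets shift left in HARA-B4, the BMP2 probe sets and 3 of 4 BMP7 probe sets shift right, and BMP4, INHBA and INHBB lie in the grey area.

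Among the ligands, BMP7, a bone morphogenetic protein also required in kidney and eye development, had the largest positive difference of the 7 measured genes. Its brightest probe set read 50.0 in HARA and 188 in HARA-B4, a 3.75-fold difference (log2 difference 1.91). A second probe set read 28.3 and 109.7 (1.95), so these probe sets differed from each other by less than the technical spread of 0.30. The third read 6.65, below background, in HARA and 58.6 in HARA-B4, and was thus at least 2.16-fold higher in HARA-B4. The fourth was below background on both arrays, at 24.5 and 11.6. The BMP7 signals in HARA were close to background, at 50.0 and 28.3 where measured, so the size of the fold is uncertain on that side. Of all genes above background on both arrays, 0.578% had a positive difference at least as large as that of BMP7.

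BMP2, a ligand able to induce bone formation, was dimmer and differed less. Its probe set used for the gene read 43.4 in HARA and 92.8 in HARA-B4, a 2.14-fold difference (1.10). The other probe set read 47.3 and 79.3, a 1.68-fold difference (0.75). Both probe sets were higher in HARA-B4, but only the first passed 2-fold, and their mean difference was 0.92. A positive difference at least as large as that of BMP2 was found in 2.42% of genes above background on both arrays. BMP2 lay in the dimmest 25% of genes, where 7.99% were past 2-fold, compared with 4.19% in the brightest 25%.

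BMP4, a ligand close in sequence to BMP2, was measured by 1 probe set, at 3.46 in HARA and 2.11 in HARA-B4. INHBA, which encodes the subunit of activin A, had 3 probe sets, all below background. They read 16.7 and 5.65, 9.41 and 0.316, and 1.06 and 0.731 in HARA and HARA-B4. INHBB, the subunit of activin B, read 2.34 and 3.74. These signals lie below the level of receptor genes taken as silent, so BMP4, INHBA and INHBB were not detectable on either array and no direction is read from them.

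BMPR2, the type II receptor that binds BMPs, was the receptor examined. Its brightest probe set read 179 in HARA and 194 in HARA-B4 (0.12). A further 3 probe sets gave 0.11, 0.14 and -0.08, while the fifth read 42.2 and 81.0 (0.94), and the sixth was below background at 16.3 and 12.3. The 5 measured probe sets thus had a mean difference of 0.25 ± 0.40 (SD over 5 probe sets of 1 gene), and 4 of them lay between -0.08 and 0.14. The fifth stood apart from these and did not reach 2-fold.

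FST encodes follistatin, a secreted glycoprotein that binds activins with high affinity and some BMPs more weakly. It was bright on both arrays and lower in HARA-B4 by each of its 3 probe sets. The probe set used for the gene read 3010.4 in HARA and 975 in HARA-B4, a 3.09-fold difference (-1.63). A second read 2362 and 954, a 2.48-fold difference (-1.31), and the third 878 and 200.4, a 4.38-fold difference (-2.13). The 3 probe sets had a mean difference of -1.69 ± 0.42 (SD over 3 probe sets of 1 gene), and each passed 2-fold. FST was in the brightest 25% of genes, far above background on both arrays, and 0.852% of genes had a negative difference at least as large. The fibroblast markers had summed signals of 299 in the parental line and 218 in the subline, of which COL1A1 alone gave 185 and 139.9. THY1 was above background in HARA only and at least 2.35-fold lower in HARA-B4. The remaining 6 of the 8, COL1A2, COL3A1, DCN, LUM, PDGFRA and PDGFRB, were at background on both. The part of the fibroblast markers in the FST difference was not tested. In whole-culture RNA, fewer cells that use a gene and less RNA per cell cannot be told apart.

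The ID genes, bright on both arrays, did not move as a group. ID1 read 3638 in HARA and 2994 in HARA-B4 (-0.28), by 1 probe set. That difference is smaller than the technical spread of 0.30. ID2 read 1436.5 and 1654 (0.20) by its brighter probe set and 726 and 936 (0.37) by the other. ID3 read 2707 and 1501, a 1.80-fold difference (-0.85), by 1 probe set. ID3 was thus lower in HARA-B4 by more than the technical spread but under 2-fold, ID1 was slightly lower and ID2 slightly higher. That spread holds no error between arrays, so it cannot say whether the ID1 or ID3 difference exceeds such error. A negative difference at least as large as that of ID3 was found in 5.09% of genes, and of ID1 in 24.5%. For ID2, 31.3% of genes had a positive difference at least as large. ID1 and ID3 had only 1 probe set each, so no second reading on the array stands beside these values.

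**Figure D2:**
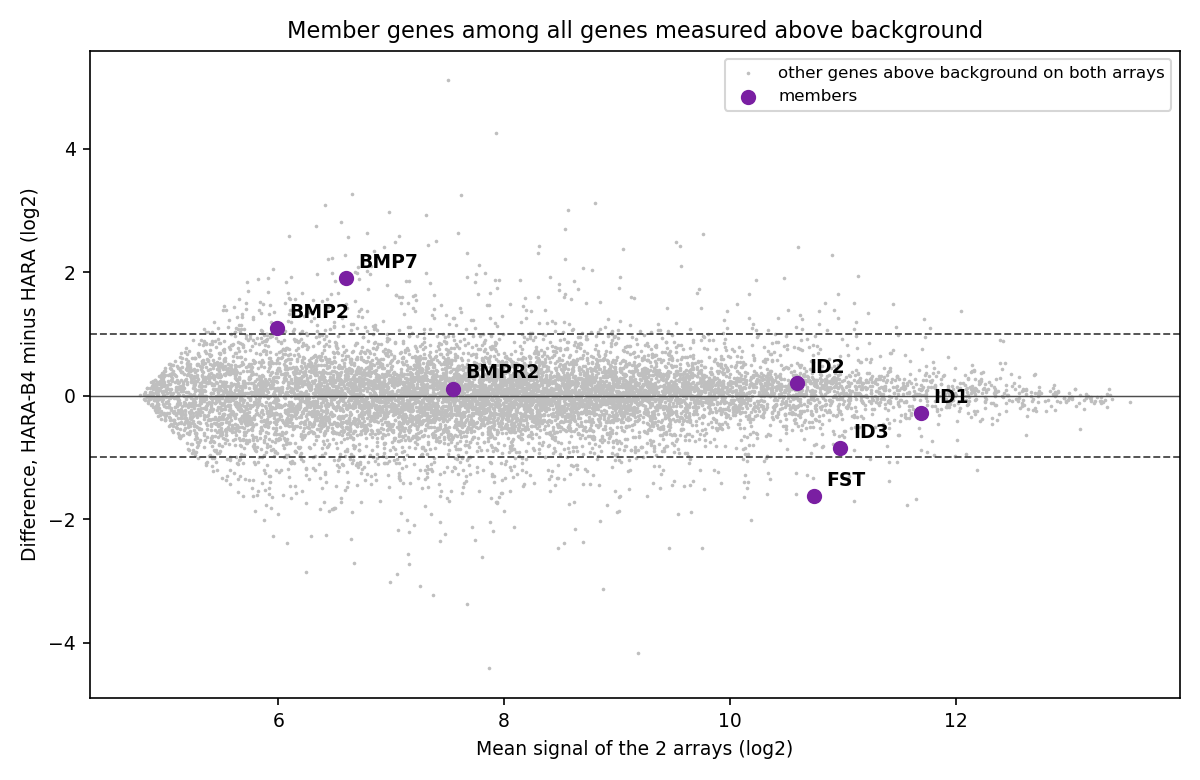
Mean log2 signal of both arrays (horizontal) against the log2 difference HARA-B4 minus HARA (vertical) for the 10207 genes above background on both arrays, with the 7 measured genes in purple and dashed lines at 2-fold. BMP7 (1.91) and BMP2 (1.10) lie above the upper line among dimmer genes, FST (-1.63) lies below the lower line among bright genes, and ID1, ID2, ID3 and BMPR2 lie between the lines.

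The rest of the pathway was described through 94 other genes in 9 lists, of which 87 were measured and 7 are not analysed here. Of the 46 above background on at least 1 array, 4 were higher in HARA-B4 by 2-fold or more, 2 were lower and 40 were neither. Over all genes above background on at least 1 array, 7.82% were past 2-fold by the same rule, 3.62% higher and 4.2% lower. The 6 pathway genes past 2-fold are thus 13.04% of the 46. The 43 pathway genes above background on both arrays had a median difference of -0.02.

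Few other ligands were measurable. Of 17 further BMP and GDF ligands, 15 were at background on both arrays, and the others were BMP8B, at 30.2 and 36.7 (0.28), and GDF11, named after its values were seen, at 29.3 and 33.9 (0.21). Of the other inhibin and activin subunits, INHBC read 242 and 201 (-0.27), while INHA and INHBE were at background. Transcripts of ligand-processing proteases were low. TLL1, a tolloid-like protease of the family that cleaves the BMP antagonist chordin, was below background in HARA and read 57.5 in HARA-B4, at least 2.12-fold higher. Its second probe set, also below background in HARA, was at least 1.55-fold higher. BMP1 (0.60), PCSK5 (0.53) and FURIN (0.22), named after their values were seen, were above background on both arrays and under 2-fold.

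Among receptors, ACVR1C, the type I receptor ALK7 that transmits activin and nodal signals, was the gene past 2-fold. It read 170.4 in HARA and 51.9 in HARA-B4 (-1.72), and its second probe set, below background in HARA-B4, was at least 3.09-fold lower there. Of 8 receptors measured, 5 were above background on at least 1 array and the 4 others of these were neither higher nor lower by 2-fold. ACVR1, a type I receptor for BMPs, read 394 and 271 (-0.54), and ACVR1B, the main type I activin receptor, 226 and 230.4 (0.03). Both were named after their values were seen.

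Co-receptors went both ways. BAMBI, a decoy receptor without a kinase domain that is itself a BMP and TGF-beta target, read 162 in HARA and 396 in HARA-B4 (1.29). TGFBR3, betaglycan, which presents ligands including inhibins and some BMPs, read 299.9 and 125 (-1.27) and, by its second probe set, 236 and 112 (-1.07). Both TGFBR3 probe sets were past 2-fold in the same direction, while BAMBI had a single measured probe set. The other co-receptors above background, RGMA (0.40), RGMB (0.37) and NEO1 (-0.07), named after their values were seen, were under 2-fold, and ENG and HJV were at background on both arrays.

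Follistatin was the secreted antagonist past 2-fold. Of 17 other antagonists and modulators measured, 6 were above background and 0 reached 2-fold by the probe set used for the gene. TWSG1, which binds BMPs together with chordin, read 1514 and 875 (-0.79), and its second probe set 294 and 137 (-1.11). FSTL3, a follistatin-like activin antagonist named after its values were seen, differed in the other direction, at 200.9 and 366 (0.87). The classical BMP antagonists NOG, CHRD and GREM1 were at background on both arrays. The 6 had a median of 0.23, 4 positive and 2 negative.

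Of 10 SMAD proteins and SMAD ubiquitin ligases, all were above background on both arrays and 1 was past 2-fold. SMAD7, an inhibitory SMAD induced by TGF-beta superfamily signals, read 48.3 in HARA and 102 in HARA-B4 (1.08) by its 1 measured probe set. SMAD6, the inhibitory SMAD more selective for the BMP branch, was named after its values were seen and read 215 and 143 (-0.59). The BMP-branch SMADs, named likewise, differed by -0.39 for SMAD1, 0.55 for SMAD5 and -0.37 for SMAD9. The list was evenly split, with 5 positive and 5 negative differences and a median of 0.02.

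ID4 and the E proteins that ID proteins bind were above background on both arrays, and 0 of 4 reached 2-fold by the probe set used for the gene. TCF12, an E protein, read 856 and 664 (-0.37). The others were named after their values were seen. TCF3 read 804 and 490.2 (-0.71), and its probe sets disagreed in size, with 81.0 and 36.0 (-1.17) by another and 88.4 and 90.6 (0.04) by a further one. TCF4 read 159 and 117 (-0.44), and ID4 252 and 240.0 (-0.07). By the probe set used for the gene all 4 differences were negative, with a median of -0.40 against 0.02 over all genes.

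Of 15 other genes known to respond to BMP, 9 were above background on at least 1 array and 1 passed 2-fold. That was GATA3, a transcription factor of epithelial and lymphoid lineages, below background in HARA and at 174 in HARA-B4, at least 6.40-fold higher. Its second probe set, also below background in HARA, read 31.0 in HARA-B4 and gave a bound of only 1.14-fold. The other 8 were neither, with SNAI2, named after its values were seen, at 1395 and 1372 (-0.02). HEY1, a hairy-related repressor named after its values were seen, read 71.6 and 126 (0.81), and its second probe set was at least 2.32-fold higher in HARA-B4. MSX2, a homeobox gene named likewise, went the other way, at 125 and 91.6 (-0.45), and at 121 and 55.9 (-1.11) by its second probe set. The 8 genes above background on both arrays had a median of -0.06, with 3 positive and 5 negative.

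**Figure D3:**
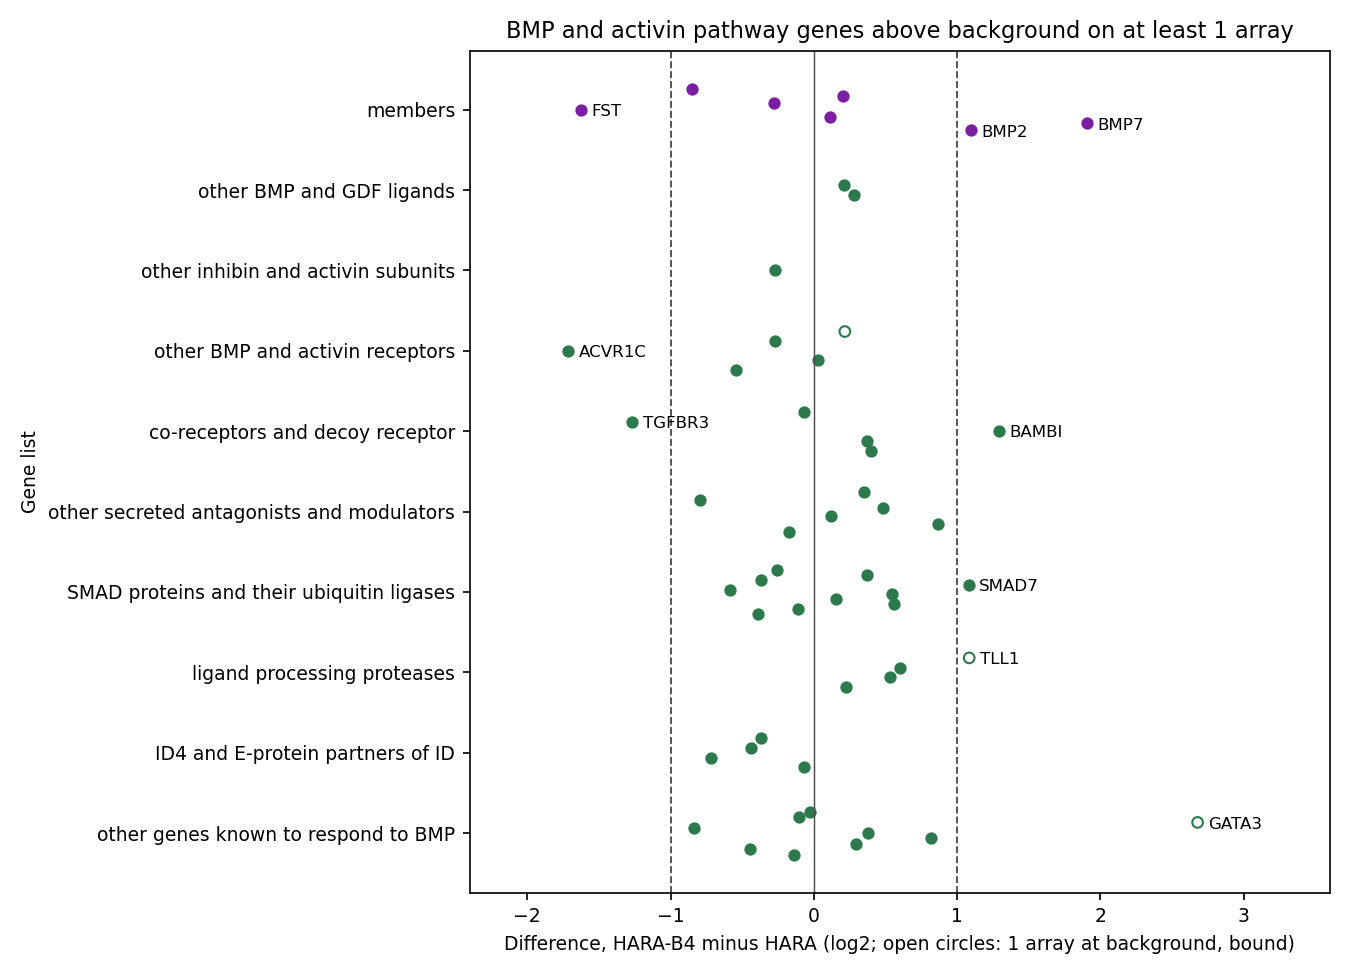
Log2 difference HARA-B4 minus HARA of each gene above background on at least 1 array, by list, with the 10-gene set at the top in purple and dashed lines at 2-fold. Filled circles are genes above background on both arrays and open circles are bounds for genes at background on 1 array. Genes past 2-fold are named, and most pathway genes lie between the lines.

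The genes next to each of the 10 on its chromosome were compared with it, as a description. The 24 nearest genes above background on both arrays, 12 on each side in RefSeq order, were taken. Over all 10207 genes above background on both arrays, 5323 differences were positive and 4884 negative. By 2-fold or more, 3.13% were higher and 3.57% lower. BMP2, on chromosome 20, differed from its surroundings: 22 of its 24 neighbours had negative differences, 4 of them by 2-fold or more, with a median of -0.54, while BMP2 was at 1.10. The highest of these neighbours was at 0.02, below BMP2. BMP7, on another part of chromosome 20, lay among genes of its own direction, with 19 of 24 positive, 4 past 2-fold and a median of 0.44. FST, on chromosome 5, lay below all of its neighbours, whose lowest value was -0.63 and median 0.30. With 6 genes on each side that median was -0.04. The sides were unlike, with a median of 0.56 before FST, at lower coordinates, and 0.19 after it. The 4 neighbours of FST past 2-fold, all higher in HARA-B4, lay before it.

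BMP4, on chromosome 14, lay in a stretch where all 24 neighbours were lower in HARA-B4, 17 of them by 2-fold or more, with a median of -1.25. BMP4 itself was at background in both lines, so no difference can be read for it. Around ID1, on chromosome 20, the median of 0.03 joined 2 opposite sides. Of the 12 genes before it, at lower coordinates, 10 were negative, with a median of -0.39, and of the 12 after it 10 were positive, with a median of 0.39. The medians around the other genes were near 0, at 0.09 for ID2 on chromosome 2, 0.02 for ID3 on chromosome 1 and 0.01 for INHBA on chromosome 7, or slightly positive, at 0.28 for BMPR2 and 0.19 for INHBB on chromosome 2. ID3, at -0.85, lay near the lowest of its neighbours (-0.88), and ID1 and ID2 within theirs.

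**Figure D4:**
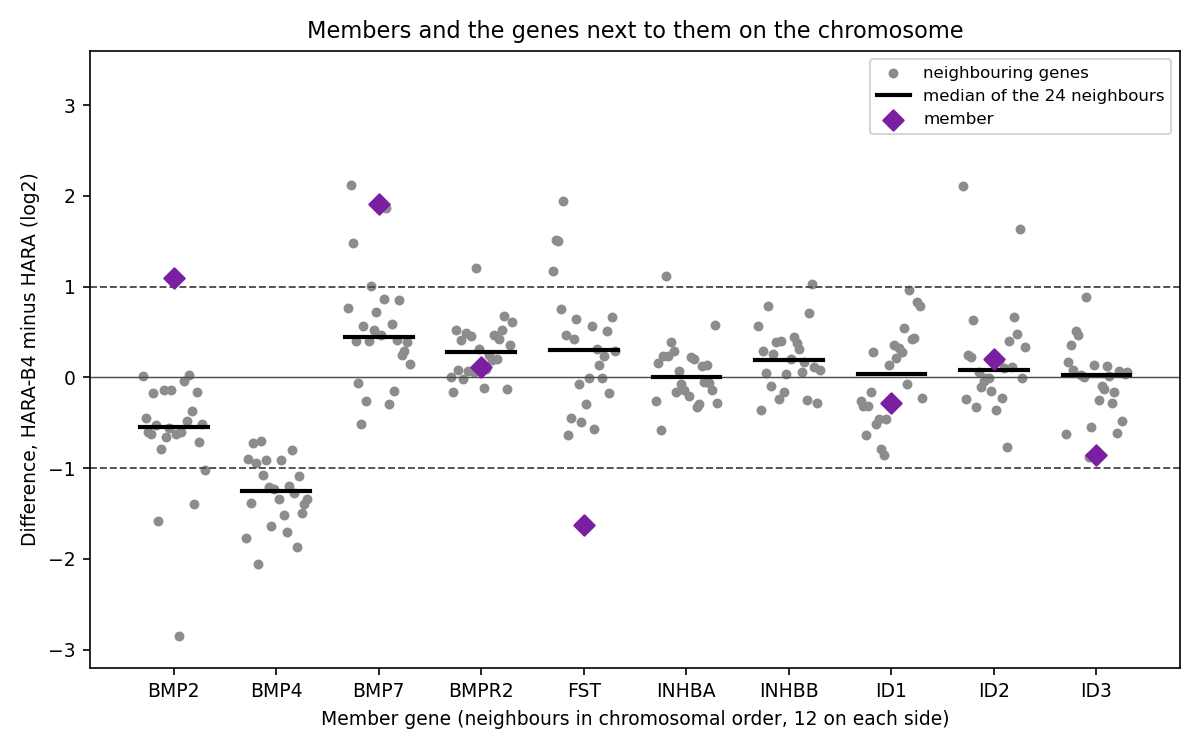
Log2 difference HARA-B4 minus HARA of each gene (purple diamond, where above background on both arrays) and of its 24 neighbours (grey points, in chromosomal order), with a bar at the neighbours' median and dashed lines at 2-fold. BMP2 lies above and FST below all of their neighbours, BMP7 lies among mostly positive neighbours, and all neighbours of BMP4 are negative.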

How the data were processed

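Total RNA of 1 HARA and 1 HARA-B4 culture was measured on 1 Affymetrix array each. The authors deposited linear probe set intensities, made with Affymetrix Expression Console, per the submitters' processing notes. The version and the summary method of that software were not stated in the sources used here. The intensities were turned to log2 values from the deposited signals and not scaled further. Of the probe sets, 41097 had 1 gene symbol, 1801 several and 11777 none, and 41043 were matched by Entrez ID to RefSeq (GRCh38.p14). A gene at background on 1 array was set to the background level there, which makes its fold a bound, and a gene was called at 2-fold or more. The 10 genes were all named, and from each pathway list every gene past 2-fold or, failing that, the brightest, and every marker above background. Genes named outside this rule were chosen after their values were seen. The genes and lists were chosen with earlier results of these data known. The functions were tested on simulated data. Alternatives were other scalings, background levels, probe set rules, log2(signal + 16) and folds of 1.5 and 3. The analysis used Python 3.11.15, pandas 2.3.3 and statsmodels 0.14.6.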

Additional observations from a re-analysis of the deposited data

How the results depend on the processing

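No paired analysis was possible because each line has 1 array. FST was called lower under all 12 alternatives, BMP7 higher under 11 and BMP2 higher under 6. Among these alternatives, the background at the 90th percentile, no background filter and the 1.5-fold threshold are looser than the main rule. They could not remove a call and so do not test it. The count of higher genes among the 10 was 2, and it was 1 with the background raised by 1, the mean of all probe sets, no probe sets ending in _x_at or _s_at, log2(signal + 16) or a 3-fold threshold. With the background at the 99th percentile, a signal of 94.8, it was 0, since BMP2 lay under that level and BMP7 had a bound of 0.98. The count of lower genes was 1, and it was 2 with no background filter, which adds INHBA, and at 1.5-fold, which adds ID3. Many of the 66 differences of single genes under alternatives were fixed in advance. A changed background level does not alter the difference of a gene that stays above it on both arrays. The mean of all probe sets cannot change a gene with 1 probe set. The called genes BMP2, BMP7 and FST kept their sign, and 5 of the 66 differences moved by more than the technical spread. For BMP2 they were 0.78 with the raised background, which is a bound, and 0.75 without _x_at and _s_at. For BMP7 they were 0.98 at the 99th percentile and 1.17 as the mean of all probe sets. Both BMP7 values are bounds, since the HARA value lay below the background level used. For FST it was -1.31 without _x_at and _s_at. For the other pathway genes the count of 4 higher was 1 at the 99th percentile, 2 with the raised background or log2(signal + 16), 10 with no filter, 7 at 1.5-fold and 1 at 3-fold. The count of 2 lower was 1 at the 99th percentile, 13 with no filter, 6 at 1.5-fold and 1 at 3-fold. These counts are among 87 measured pathway genes. Over all 19775 genes, 416 were higher and 483 lower by the main rule, and 2276 and 2553 with no filter. They were 1175 and 1269 at 1.5-fold, 141 and 155 at 3-fold, and 206 and 244 at the 99th percentile. The raised background gave 284 and 340, and log2(signal + 16) gave 292 and 358. The stricter and looser rules set these counts by construction. Biological spread cannot be estimated from these 2 arrays, and signals near 27.1 limit the folds of BMP2 and BMP7.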
